A study of Mus musculus with 8 samples.

Results

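The genes described here are 10 markers of the hair follicle bulge, the niche in the outer root sheath where follicle stem cells rest between rounds of hair growth. They are Krt15, Cd34, Postn, Lgr5, Lhx2, Sox9, Nfatc1, Tcf7l1, Hmcn1 and Npnt, 10 of the 49315 genes counted, and were chosen by name as bulge markers and quiescence factors. All 10 were found by symbol and all 10 passed the filter on low counts. RNA sequencing measured expression in back skin epidermis, labelled as keratinocytes, of 22-month-old mice. There were 3 wild type (WT) libraries and 5 libraries labelled Tgfa knockout (KO), in which the gene of the EGF receptor ligand TGF alpha is targeted. How the allele was targeted, the strain and any pooling are not stated in the labels. Whether each library is a separate animal is not stated either, so every p-value here rests on the spread between libraries. By its title, the series asks what loss of TGF alpha does to hair follicles in old mice.

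Bulge stem cells are slow-cycling epithelial cells that feed new hair growth. In the follicle, Lhx2, Sox9, Nfatc1 and Tcf7l1 encode transcription factors that maintain these cells or hold them at rest, Cd34 and Lgr5 encode surface proteins used to mark and sort them, and Krt15 encodes a keratin enriched in them. Postn, Npnt and Hmcn1 encode secreted proteins of the extracellular matrix and basement membrane. Several of these genes are also known outside the bulge, Cd34 in endothelial cells and dermal fibroblasts, Postn in fibroblasts and Sox9 in the rest of the outer root sheath. In a bulk sample, fewer cells of a type and less RNA per cell cannot be told apart.

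Total counts were 5313552 to 18292303 per library. KO replicate 2 was the shallowest but had counts on 42326 genes, while the others had them on 23179 to 33963. Olfactory and vomeronasal receptor genes, normally expressed in the nose, reached 3563.91 CPM there (CPM being read counts scaled to a common library size), 587.72 in WT replicate 3, 254.44 in WT replicate 2 and 33.24 to 62.87 in the rest. Malat1, a nuclear RNA, took 6.61% of WT replicate 3 and 4.88% of the library labelled KO replicate 1, the remaining libraries having 1.34% to 1.84%. Tgfa itself stood at 92.5, 85.1 and 112 CPM for the WT libraries. KO replicates 2 to 5 kept 34.4, 43.3, 36.2 and 70.15 CPM, below every WT value. The library labelled KO replicate 1 had 131.7 CPM, above every WT value. The genotypes thus overlapped for Tgfa, with a log2 fold change of -0.61 (edgeR adjusted p = 0.899). Because the targeting of the allele is not stated, the Tgfa level cannot show whether any label is right or wrong. All WT library names and those of KO replicates 1 and 2 carry the ending br, and KO replicates 3 to 5 carry bl, which the labels do not explain. Several values of the bulge genes are also given without the library labelled KO replicate 1, KO replicate 2 or WT replicate 3.

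Markers of keratinocytes were abundant in every library, with summed levels of 3780 to 12800 CPM for 5 basal genes (Krt5, Krt14, Trp63, Itgb4 and Col17a1) and 5640 to 21800 CPM for 5 suprabasal genes. Among the bulge genes only Krt15 was abundant, and Cd34, a defining marker of the mouse bulge, was scarce. Which cells the Krt15 RNA came from cannot be told in a bulk sample. Per kilobase of exon, Krt15 was the highest of the 10 in all 8 libraries, at 140 to 611 CPM per kb. Sox9 (9.2 to 29.7 CPM per kb), Nfatc1 (8.08 to 20.2) and Postn (3.61 to 31) followed, and their order among themselves changed between libraries. Npnt (1.28 to 4.72), Hmcn1 (0.793 to 4.86) and Lhx2 (0.632 to 3.95) were lower and overlapped. Lgr5 (0.208 to 2.47), Tcf7l1 (0.301 to 3.01) and Cd34 (0.0772 to 1.5) were the lowest, and these 3 overlapped as well. The median coefficient of variation of the 10 genes was 40.2% in WT and 40.9% in KO, against 24.5% and 27.6% over the 11131 tested genes with a mean of at least 5 CPM.

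The comparison of KO with WT asked of each gene whether its level differed between genotypes. With edgeR's quasi-likelihood test and Benjamini-Hochberg adjustment over all 19239 genes tested, 0 of the 10 bulge genes passed an adjusted p under 0.05 in either direction. Over all genes 1 passed, or 0.0052%. Before adjustment, 2 of 10 had a p under 0.05, Postn and Hmcn1, both higher in KO, against 6.28% of all genes (4.44% higher). Log2 fold changes (KO minus WT) ran from -0.57 to 1.86, with 7 positive and 3 negative and a median of 0.55, beside a median of 0.16 and 61.9% positive over all genes. The distance between these medians depended on the fit and on the genes kept in it. In DESeq2, fitted to every gene with a count, the members' median was 0.51 and that of all genes 0.52. In edgeR without a filter on low counts they were 0.51 and 0.53. Without KO replicate 2 they were 0.05 and 0.02, without WT replicate 2 they were 0.1 and -0.06, and without WT replicate 3 and KO replicates 1 and 2 they were -0.06 and 0. Limma voom called 0 of the 10 and 0 of all 19239 genes (0%). DESeq2 called 2 (0.81% of all genes, 0.574% higher), limma voom with library quality weights called 2 (6.46%, 3.39% higher), and edgeR without the 3 libraries just named called 2 (10.6%, 5.25% higher). WT against the KO libraries ending in bl gave 0 of the 10 (0.122% of all genes, 0.0579% higher). In this fit and in the one without the 3 libraries, all WT libraries ended in br and all KO libraries in bl. Ending and genotype cannot be told apart there. The quality weights were 0.34, 0.28 and 0.37 for WT replicate 3 and KO replicates 1 and 2, and 1.47 to 2.26 for the others.

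**Figure D1:**
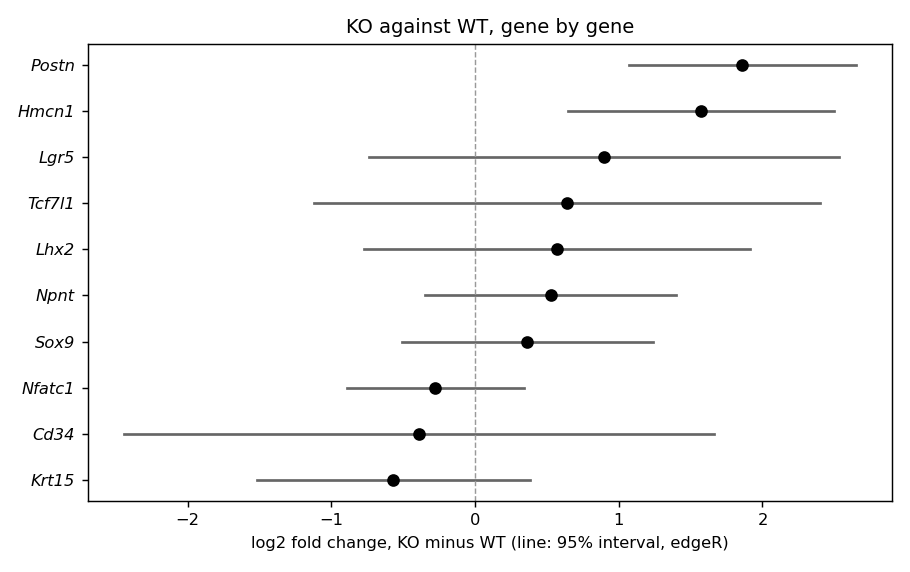
Log2 fold change of each bulge gene, KO minus WT (points, from edgeR on 3 WT and 5 KO libraries), with its 95% interval (lines). Only the intervals of Postn (1.07 to 2.65) and Hmcn1 (0.65 to 2.5) lie wholly above 0, and neither gene passed after adjustment over all genes.

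The keratin and surface markers did not separate the groups. Krt15 (ENSMUSG00000054146, chromosome 11, 100131758 to 100135928, GRCm38) was 1080.5, 707 and 247 CPM in WT replicates 1 to 3. It was 271, 483, 472, 487 and 574 CPM in KO replicates 1 to 5, so that all KO values lay inside the wide WT range. Its difference on the log2 scale was -0.57 (95% interval -1.52 to 0.38, SE 0.43), with an edgeR adjusted p = 0.901. It was -0.07 without WT replicate 1 and -0.98 without WT replicate 3. With WT replicate 3 and KO replicates 1 and 2 all left out, Krt15 fell by 0.83 on the log2 scale (edgeR adjusted p = 0.022), from 2 WT libraries ending in br and 3 KO libraries ending in bl, so that the ending and the genotype cannot be told apart there.

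Krt15 was also set against the summed counts of Krt5 and Krt14, the keratin pair of all basal keratinocytes, which makes it independent of library scaling. There were 163, 137 and 98.5 Krt15 counts per 1000 Krt5 and Krt14 counts in WT. In KO there were 62.3, 145, 59.1, 61.8 and 89.2. KO replicate 2, at 145, lay inside the WT range, and every other KO value was below every WT value. The ratio also depends on Krt5 and Krt14, which together were 6640, 5160 and 2510 CPM in WT. In KO they were 4350, 3330, 7990, 7890 and 6440 CPM. Krt14 was 0.67 higher in KO on the log2 scale (edgeR adjusted p = 0.884) and Krt5 0.13 (adjusted p = 0.965). In KO replicate 2 the level of silent genes corresponds to 0.432% of the Krt15 counts. The share of all genes that separate when that library is set aside was not computed. This ratio was set up with earlier results of these data known and was not tested on its own. In a fit of all genes scaled to Krt5 and Krt14 the log2 fold change of Krt15 was -0.67 (edgeR adjusted p = 0.974).

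Cd34 encodes a sialomucin and marks mouse bulge cells at the cell surface. It was 4.98, 1.65 and 5.63 CPM in WT, and 1.11, 10.9, 0.56, 1.37 and 2.02 CPM in KO, where only KO replicate 2 exceeded 2.02. The log2 fold change was -0.39 (SE 0.92, edgeR adjusted p = 0.954), and -1.72 without KO replicate 2 (adjusted p = 0.401). The 95% interval, -2.44 to 1.66, spans a change from 0.185-fold to 3.15-fold, so the data limit the size of a Cd34 difference very little.

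Lgr5 encodes a receptor for R-spondins that amplifies Wnt signalling and marks the lower bulge and hair germ. It was 6.1, 5.09 and 3.44 CPM in WT, and 2.14, 25.4, 3.25, 5.53 and 9.95 CPM in KO. KO replicates 2 and 5 lay above the WT range and the library labelled KO replicate 1 and KO replicate 3 below it. The difference of 0.9 on the log2 scale (SE 0.73), with an edgeR adjusted p = 0.912, came to 0.07 without KO replicate 2.

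The 4 transcription factor genes overlapped between genotypes. Nfatc1, whose product restrains the cell cycle in resting bulge cells, was 150.01, 88.4 and 85.7 CPM in WT. It was 97.4, 60.1, 82.7, 92.6 and 113 CPM in KO. Its log2 fold change of -0.28 had the narrowest interval of the 10, from -0.89 to 0.34 (edgeR adjusted p = 0.93), which spans a change from 0.539-fold to 1.26-fold. Without WT replicate 1, the highest library, it was 0.08.

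Sox9, needed for the formation and upkeep of the stem cell pool, was 83.5, 38 and 54 CPM in WT. It was 123, 80.4, 40.8, 49.1 and 83.7 CPM in KO, highest in the library labelled KO replicate 1. KO exceeded WT by 0.36 on the log2 scale (SE 0.39) for Sox9, with an edgeR adjusted p = 0.931. It was 0.12 without the library labelled KO replicate 1 and -0.05 without WT replicate 2. Lhx2, a LIM homeodomain factor of the bulge and hair germ, was 8.68, 2.78 and 4.14 CPM in WT, and 4.27, 17.4, 3.5, 4.68 and 9.26 CPM in KO. Its log2 fold change was 0.57 (SE 0.6, edgeR adjusted p = 0.931), and 0.03 at the lowest with 1 library left out.

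Tcf7l1 encodes TCF3, a repressor of Wnt target genes in resting stem cells. The gene lies on chromosome 6 (72626378 to 72789254), 13.41 Mb from Tgfa. It was 3.58, 1.32 and 2.58 CPM in WT, and 1.18, 11.8, 2.38, 1.88 and 2.57 CPM in KO. Outside KO replicate 2 no KO library exceeded the WT range. The Tcf7l1 difference was 0.64 on the log2 scale (SE 0.79), with an edgeR adjusted p = 0.935, and -0.35 without KO replicate 2.

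**Figure D2:**
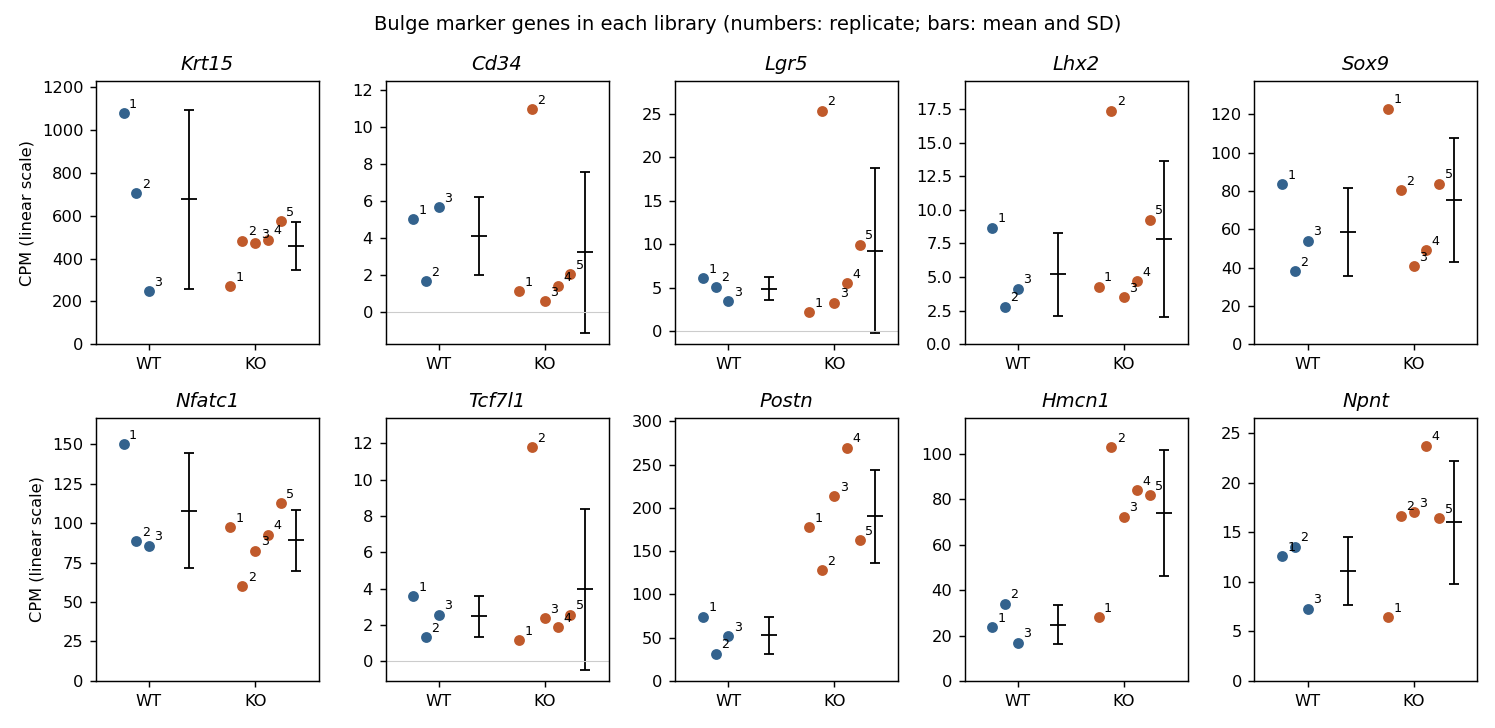
CPM of the 10 bulge genes in each library on linear axes (points, numbered by replicate), with the mean and SD of each group (black bars, n = 3 WT and n = 5 KO). Postn is the only gene with every KO library above every WT library, and KO replicate 2 is far above the other libraries for Cd34, Lgr5, Lhx2 and Tcf7l1.

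KO replicate 2 had counts in genes that other libraries lacked, and its scarce bulge genes were set beside that level. Over 14394 autosomal genes without a count in any of the 5 libraries under 100 CPM of receptor genes, it had 6.77 counts per kb of exon, WT replicate 3 had 2.51 and WT replicate 2 had 1.2. At that rate the exons of Cd34 would hold 49.3 counts in KO replicate 2, where 63 were counted. For Lgr5 the values were 69.5 and 146, for Tcf7l1 26.6 and 68, and for Lhx2 29.7 and 100. For Krt15 they were 12 and 2779, for Postn 58.9 and 736, and for Hmcn1 143.4 and 593. After subtraction of that level from all genes, KO replicate 2 had 2.43 CPM of Cd34, inside the range of the other libraries, while Lgr5 (13.4 CPM), Lhx2 (12.2) and Tcf7l1 (7.12) were still highest there. After the subtraction 0 of the 10 genes and 1 of 17827 genes in all passed the edgeR threshold.

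**Figure D3:**
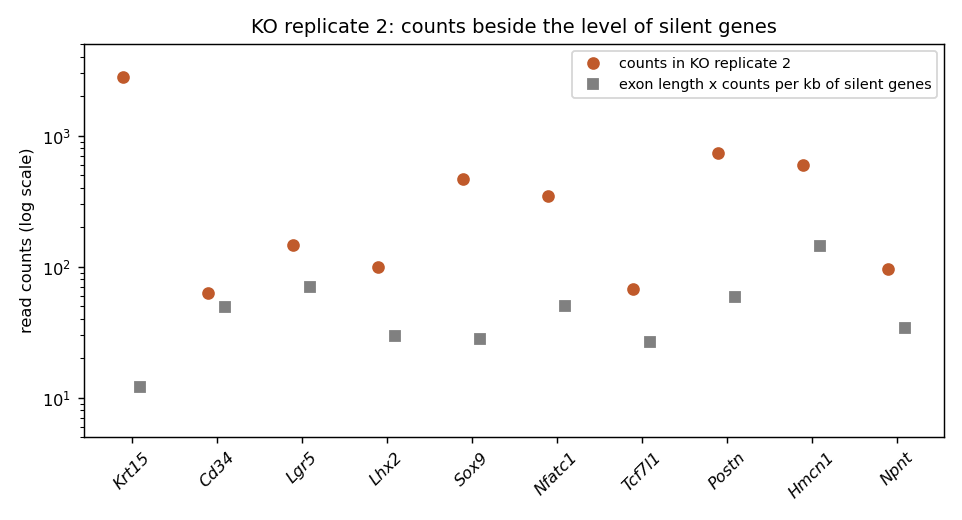
Read counts of the bulge genes in KO replicate 2 on a log axis (circles), beside their exon length multiplied by the 6.77 counts per kb found on genes silent in other libraries (squares). The circles and squares are closest for Cd34 (63 and 49.3 counts) and farthest apart for Krt15 (2779 and 12).

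The 2 largest positive differences of the 10 were in matrix genes. Postn encodes periostin, a matricellular protein that binds integrins and collagens. Postn (ENSMUSG00000027750, chromosome 3, 54361109 to 54391037) was 74.4, 31.4 and 51.7 CPM in WT replicates 1 to 3. It was 178, 128, 214, 269.7 and 163 CPM in KO replicates 1 to 5, so the lowest KO library was above the highest WT library. Groups failed to overlap for 1 of the 10 genes, against 5.15% of all genes tested (3.4% with KO above WT). Postn was 3.63-fold higher in KO (log2 1.86, 95% interval 1.07 to 2.65, SE 0.36), in 5 of 5 KO libraries, and did not pass (edgeR adjusted p = 0.33). Over 22 alternative settings it ran from 1.38 to 2.26, and the adjusted p from 0.000137 in DESeq2 (log2 fold change 1.82) to 1 without WT replicate 1 or 2. With library quality weights Postn rose by 2.21 (limma adjusted p = 0.00321).

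Hmcn1 encodes hemicentin 1, a very large extracellular protein of epithelial junctions with the basement membrane. Hmcn1 (ENSMUSG00000066842, chromosome 1, 150562524 to 150993435) was 23.6, 34.1 and 16.8 CPM in WT. It was 28, 103, 72.3, 84.1 and 81.9 CPM in KO. The library labelled KO replicate 1 lay within the WT range, and the other 4 KO libraries lay above it. The share of all genes with this pattern was not computed. Hmcn1 was 2.97-fold higher in KO (log2 1.57, 95% interval 0.65 to 2.5, SE 0.41) and did not pass (edgeR adjusted p = 0.529). It was 1.78 without the library labelled KO replicate 1 (adjusted p = 0.13). Hmcn1 was called in DESeq2 (1.53, adjusted p = 0.0289), with quality weights (1.45, limma adjusted p = 0.00636) and in edgeR without WT replicate 3 and KO replicates 1 and 2 (1.43, adjusted p = 0.00237). In that last fit the ending and the genotype cannot be told apart, and the quality weights were lowest for the same 3 libraries. Gm20631, an antisense gene that overlaps Hmcn1, had 8 to 18 counts in WT, 34 to 47 in KO replicates 2 to 5 and 1 in the library labelled KO replicate 1. Hmcn1 had 215 to 515 counts in WT and 380 to 1474 in KO, and without strand information reads of the pair cannot be told apart.

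Npnt encodes nephronectin, a basement membrane ligand of the integrin alpha 8 beta 1 through which the bulge anchors the arrector pili muscle. Npnt (ENSMUSG00000040998, chromosome 3, 132881745 to 132950291) was 12.6, 13.6 and 7.27 CPM in WT and 6.41, 16.7, 17, 23.7 and 16.4 CPM in KO. As for Hmcn1, the library labelled KO replicate 1 was low and the other 4 KO libraries were above every WT library. After subtraction of the silent gene level, KO replicate 2 had 10.77 CPM of Npnt, below WT replicates 1 (12.59) and 2 (13.16). The share of all genes with these 4 KO libraries above every WT library was not computed. The Npnt difference was 0.53 on the log2 scale (SE 0.39), with an edgeR adjusted p = 0.901. It was 0.73 without the library labelled KO replicate 1 (adjusted p = 0.297) and -0.09 among libraries ending in br. Itga8, which encodes the alpha 8 chain of that receptor and was named after its values were seen, was 0.84, 2.25 and 2.58 CPM in WT and 0.52, 11.3, 0.69, 1.31 and 0.49 CPM in KO (0.56 on the log2 scale, adjusted p = 0.948). Only KO replicate 2 exceeded the WT range, and 3 of the other 4 KO libraries were below it. The silent gene level was not subtracted from these Itga8 values.

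The promoters of the 3 matrix genes are printed because Postn and Hmcn1 had the lowest p of the 10 and Npnt is the other matrix gene among them. Each is the 250 bases before the RefSeq start site, 5′ to 3′ on the gene's strand, from RefSeq on GRCm38.p6. They lie at chr3:54360857-54361106 (plus strand) for Postn, chr1:150993436-150993685 (minus strand) for Hmcn1 and chr3:132950292-132950541 (minus strand) for Npnt. Where the table holds a second start site (Postn and Npnt), the one nearest the gene start in the files was used. Capitals mark matches on either strand to 6 short motifs. They are the TCF/LEF letters CTTTGA, the SOX letters ATTGTT, the NFAT letters GGAAA, the LIM homeodomain letters TAATTA, the RUNX letters TGTGGT and the TATA box letters TATAAA, none of which overlapped another in these windows.
Postn: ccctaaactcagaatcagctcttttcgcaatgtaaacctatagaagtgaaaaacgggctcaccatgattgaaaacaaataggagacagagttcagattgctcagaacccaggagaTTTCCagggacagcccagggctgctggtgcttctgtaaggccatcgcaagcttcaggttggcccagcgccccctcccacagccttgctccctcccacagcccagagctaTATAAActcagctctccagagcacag
Hmcn1: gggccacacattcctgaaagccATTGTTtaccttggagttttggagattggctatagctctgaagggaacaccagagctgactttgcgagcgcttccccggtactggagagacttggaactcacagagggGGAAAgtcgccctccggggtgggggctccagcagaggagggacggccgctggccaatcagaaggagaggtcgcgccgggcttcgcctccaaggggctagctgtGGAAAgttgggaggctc
Npnt: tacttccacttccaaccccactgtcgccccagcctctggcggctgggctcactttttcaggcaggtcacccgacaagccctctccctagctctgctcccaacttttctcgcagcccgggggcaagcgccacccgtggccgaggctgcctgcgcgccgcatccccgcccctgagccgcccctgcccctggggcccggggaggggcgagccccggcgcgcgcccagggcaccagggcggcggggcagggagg

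The Postn window held 1 NFAT match and a TATA box whose last base lies 21 bases before the start site. Of the 32851 promoter windows of this length, 12.4% held the TATA box letters at any position on either strand. The Hmcn1 window held 1 SOX match (9.4% of windows) and 2 NFAT matches (55.6% of windows had at least 1). The Npnt window held none of the 6 motifs. TCF/LEF, LIM homeodomain and RUNX letters, found in 13.8%, 4.8% and 14.0% of windows, were in none of the 3 windows. The windows before the second start sites, not printed, held other matches. That of Npnt held 1 NFAT match, and that of Postn held 1 SOX match and no NFAT or TATA box letters. A match describes the letters alone. Of the 10 genes, 6 had promoter entries, and those of Krt15, Lgr5, Sox9 and Nfatc1 were not matched.

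Since Postn and Cd34 are also expressed by dermal fibroblasts, levels were set beside 6 fibroblast markers (Col1a1, Col1a2, Col3a1, Pdgfra, Dcn and Lum). The summed level was 34.1 to 39.6 CPM in WT and 3.94 to 74 CPM in KO, with 0 of 5 tested markers called, 2 of 5 positive, and Lum at 0 in KO replicate 3. KO replicate 3 had the lowest fibroblast sum, 3.94 CPM, with 214 CPM of Postn. KO replicate 4 had the highest Postn, 269.7 CPM, with a fibroblast sum of 20.3. KO replicate 2 had the highest fibroblast sum, 74, with 128 CPM of Postn, and the library labelled KO replicate 1 had 39.8 with 178. Silent genes had 6.77 counts per kb of exon in KO replicate 2. That level was not subtracted from the fibroblast sums or from the covariate, and its share in them was not computed. With the mean level of these markers as a covariate, the log2 fold change of Postn was 1.75 (edgeR adjusted p = 0.294) and that of Hmcn1 1.59 (adjusted p = 0.442). Cd34, at -0.39 without the covariate, was at -0.65 with it (adjusted p = 0.831). Which cells the Postn counts came from was not tested.

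**Figure D4:**
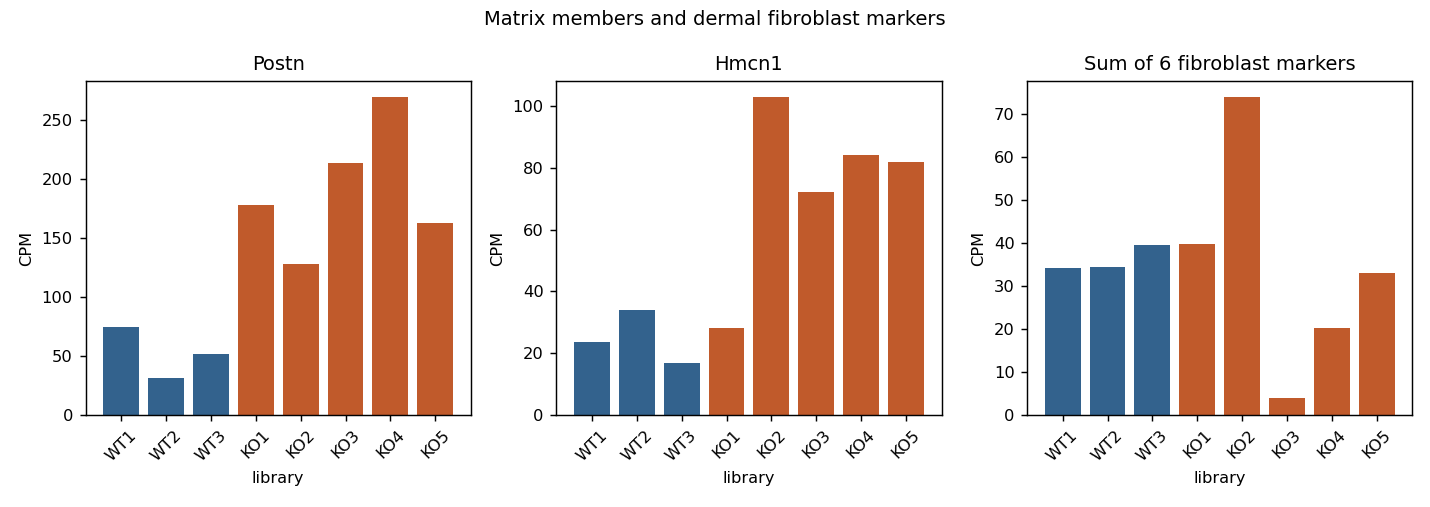
CPM of Postn (left), Hmcn1 (centre) and the sum of 6 dermal fibroblast markers (right) in each library, WT in blue and KO in orange. Postn is higher in all KO libraries (128 to 269.7) than in WT (31.4 to 74.4). The fibroblast sum runs from 34.1 to 39.6 in WT and from 3.94 to 74 in KO, without subtraction of the level of silent genes.

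Markers of several non-epithelial cell types were highest in KO replicate 2, where silent genes had 6.77 counts per kb. That level was not subtracted from the sums given here. The 5 endothelial markers summed to 1.12 to 11 CPM in WT and 2.37 to 60.4 in KO, 60.4 being KO replicate 2 and 4.64 the next highest KO library, with Emcn at 0 in WT replicate 1 and KO replicate 5. KO replicate 2 was also the highest library for 5 smooth muscle markers (3.25 to 11.3 CPM in WT, 2.88 to 33.7 in KO), 4 skeletal muscle markers (1.68 to 8.75 and 0.125 to 25.4), 4 adipocyte markers (0.28 to 3.75 and 0.0625 to 23.1) and 4 dermal papilla markers (2.65 to 6.25 and 0.663 to 31.6). Sums in WT and KO were 547 to 743 and 453 to 668 CPM for 4 sebocyte genes, almost all of it Scd1, 6.96 to 17.2 and 7.81 to 21.5 for 4 melanocyte genes, 107 to 139 and 84.7 to 128 for 4 Schwann cell genes, almost all of it Mbp, and 219 to 377 and 108 to 320 for 5 immune genes. For 6 hair cortex and root sheath keratins they were 8.6 to 19.6 and 7.74 to 343, with 343 in KO replicate 5. Among the sebocyte genes Mgst1, named after its values were seen, was 3.05 to 3.57 CPM in WT and 6.19 to 18.2 in KO (log2 1.75, edgeR adjusted p = 0.421). Cd34 and the endothelial sum were both highest in KO replicate 2, where the level of silent genes corresponds to 78.3% of the Cd34 counts. The share of that level in the marker sums was not computed. Whether endothelial cells contributed to the Cd34 level was not tested.

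Within libraries, Krt15 and Postn kept different proportions in the genotypes. There were 6.88, 4.45 and 20.9 Postn counts per 100 Krt15 counts in WT. In KO there were 65.6, 26.5, 45.3, 55.3 and 28.3, all above every WT value. Krt15 made up 51.6% to 76.6% of the summed CPM of the 10 genes in WT and 38% to 54.4% in KO. The ratio pairs the members with the most negative and the most positive fold change, so its direction was fixed by that choice and it was given no test.

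**Figure D5:**
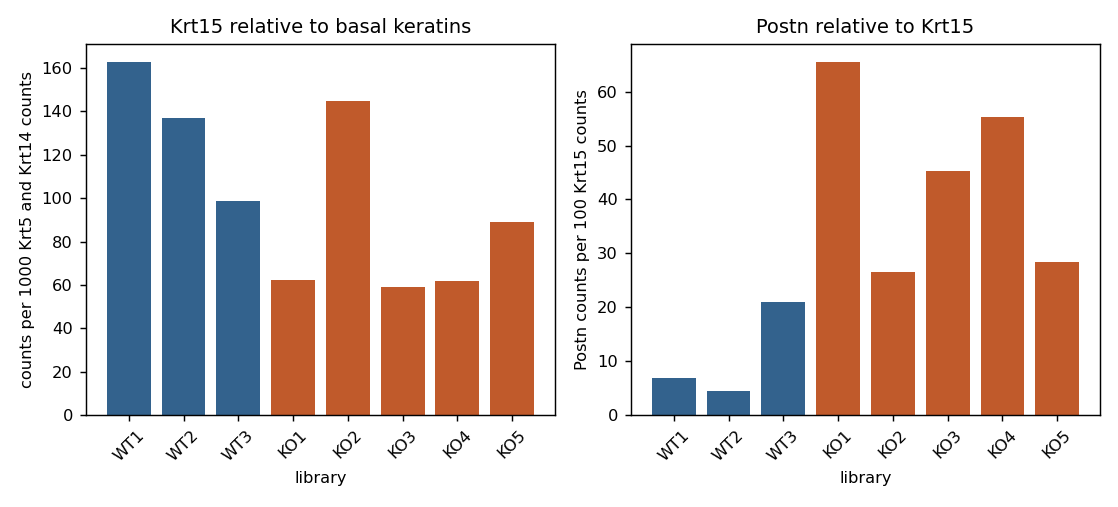
Krt15 counts per 1000 Krt5 and Krt14 counts (left) and Postn counts per 100 Krt15 counts (right) in each library, WT in blue and KO in orange. The left ratio overlaps between genotypes through KO replicate 2 (145), and the right one runs from 4.45 to 20.9 in WT and from 26.5 to 65.6 in KO.

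Genes whose pattern over the 8 libraries was most like that of a member were found by the root mean square difference of centred log2 CPM, over 10112 named genes with a mean of at least 5 CPM. The libraries share depth and composition, so likeness is a description. Nearest to Postn were Btbd19 (0.28), Pclaf (0.32), which encodes a PCNA-binding protein of DNA replication, and Sema4c (0.37), a semaphorin gene. Nearest to Hmcn1 were Steap4 (0.22), Trmt9b (0.23) and Pbk (0.28), a mitotic kinase gene. Among those nearest to Krt15 were Daglb and Adgra3, each at 0.18. Nearest to Lgr5 were Farp1 (0.26), Gli2 (0.28), a Hedgehog pathway transcription factor gene, and Slc16a7 (0.42). For Nfatc1 they were Evi5l, Trib1 and Zfp687, each at 0.13, for Npnt Uqcc1 (0.14), Ttc27 (0.15) and Zfp318 (0.16), for Sox9 Sbk1 (0.19), Spsb3 (0.29) and Pqlc2 (0.31), and for Lhx2 Pdzrn3 (0.38), Ptprk (0.38) and Dclk1 (0.41). Among the members themselves the most alike were Lhx2 and Tcf7l1, at 0.47.

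A further 20 genes of the bulge and hair germ were read from the same fit. None passed in edgeR, and 4 of 20 had an unadjusted p under 0.05, against 6.28% of all genes. Of the 20, 16 were positive, against 61.9% of all genes, and the median was 0.35, beside 0.16. The lowest p was that of Runx1, a transcription factor gene that acts in the activation of follicle stem cells. Runx1 averaged 31.9 CPM in WT against 85.8 in KO (a difference of 1.43 on the log2 scale, SE 0.28, adjusted p = 0.33), with every KO library above every WT library. The same separation held for Tnc, the gene of the matrix protein tenascin C (1.49, adjusted p = 0.558), Barx2, a homeobox gene (1.04, adjusted p = 0.578), and S100a6, a calcium-binding protein gene (0.42, adjusted p = 0.813). These 4 of 20 were singled out after their values were seen, and 3.4% of all genes had every KO library above every WT library. The negative member with the lowest p was Hopx, a homeodomain gene of the bulge (-0.53, adjusted p = 0.899). The most abundant were Itga6, the alpha 6 integrin gene, at 771 CPM in WT and 604 in KO (-0.35, adjusted p = 0.935), and Vdr, the vitamin D receptor gene, at 139 and 150 (0.11, adjusted p = 0.958). DESeq2 called Runx1 alone (1.39, adjusted p = 0.000939). With quality weights Runx1, Tnc and Barx2 rose (1.59, 1.24 and 1.09) and Hopx and Ccn2 fell (-0.95 and -1.51), with limma adjusted p from 0.00443 to 0.0348. Without WT replicate 3 and KO replicates 1 and 2, Runx1, Barx2 and Tnc rose (1.69, 1.2 and 1.15) and Hopx, Cdh3 and Itga6 fell (-1.07, -0.54 and -0.46), with edgeR adjusted p from 0.00206 to 0.0461. In that fit the ending and the genotype cannot be told apart.

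Of 21 genes whose products act with those of the members, 20 were tested and 0 passed in edgeR, with 0 at an unadjusted p under 0.05 and 0 in DESeq2 or limma voom. Their median log2 fold change was 0.03, with 11 positive and 9 negative. The most abundant were Ctnnb1, the beta-catenin gene through which TCF factors act, at 386 CPM in WT and 363 in KO (-0.09, adjusted p = 0.962), and Tle3, the gene of a corepressor of TCF factors, at 286 and 272 (-0.07, adjusted p = 0.971). The lowest p in each direction belonged to Itgb1, the beta 1 integrin gene (-0.43, adjusted p = 0.861), and Cdk4, a cell cycle kinase gene repressed by NFATC1 (0.32, adjusted p = 0.912). Of the receptors related to Lgr5, named after their values were seen, Lgr4 was 83.2 CPM in WT and 81.9 in KO and Lgr6 82.5 and 93.5.

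Since quiescence is a property of bulge cells, cell cycle genes were read as well. Which cells their RNA came from cannot be told in a bulk sample. Of 10 cell cycle brake genes, 9 were tested and 0 passed in edgeR, with 0 at an unadjusted p under 0.05. The median was 0.06. Cdkn1a, the gene of the inhibitor p21, was 416, 346 and 305 CPM in WT and 393, 133, 193, 216 and 192 CPM in KO (-0.66, adjusted p = 0.832). The library labelled KO replicate 1 was within the WT range and the other 4 KO libraries were below it. The share of all genes with these 4 KO libraries below every WT library was not computed. Rbl1 was 28 CPM in WT and 40.2 in KO (0.52, adjusted p = 0.851). Cdkn1b, the gene of p27, was 204 and 152 (-0.43, adjusted p = 0.933), and its highest values were those of WT replicate 3 (358) and the library labelled KO replicate 1 (303). With quality weights Cdkn1a fell (-0.86, limma adjusted p = 0.0181) and Cdkn2b and Cdkn2c rose (0.92 and 0.87). Without WT replicate 3 and KO replicates 1 and 2, Cdkn1a fell (-0.96, edgeR adjusted p = 0.00237) and Cdkn2b, Cdkn2c and Rbl1 rose (0.99, 0.95 and 0.65). In that fit the ending and the genotype cannot be told apart. All 8 cycling genes were positive, against 61.9% of all genes, with a median of 1.27. With the ending as a covariate the median was 0.57, and in the br libraries alone 0.48. None passed in edgeR, 6 of 8 had an unadjusted p under 0.05, against 6.28% of all genes, and the lowest p was that of Top2a (1.19, adjusted p = 0.538). Mki67, the most abundant, was 79.3 CPM in WT and 216 in KO (1.45, adjusted p = 0.58), and Top2a was 33.5 and 76.4. DESeq2 called Top2a (1.16, adjusted p = 0.0492). With quality weights Mki67, Top2a, Ccna2 and Mcm5 rose (1.55, 1.16, 1.6 and 1.46), with limma adjusted p from 0.0178 to 0.032.

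Within KO, the libraries ending in bl were compared with those ending in br, since all WT names end in br. In edgeR 0 of the 10 bulge genes and 0 of 19026 genes passed (0%). No member had an unadjusted p under 0.05. Sox9 had the lowest, at 40.8 to 83.7 CPM in bl and 80.4 to 123 in br (log2 difference bl minus br -0.87, SE 0.37, adjusted p = 0.29), followed by Cd34 (-2.25, SE 1.04, adjusted p = 0.315). Postn was 163 to 269.7 CPM in bl and 128 to 178 in br (0.44, SE 0.33, adjusted p = 0.529). Among libraries ending in br alone, Postn was 1.49 and Hmcn1 1.25 (edgeR adjusted p = 0.993 for both), from 3 WT and 2 KO libraries.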

How the data were processed

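RNA was sequenced from 3 WT and 5 KO libraries. The authors deposited 1 file of whole-number read counts per Ensembl gene for each library, without normalization. The tools listed in the submitters' processing notes are STAR 2.5.2b, Subread 1.5.2 (featureCounts) and Trimmomatic 0.36. The notes name the builds GRCh38 and GRCm38. No strand setting is stated there. Gene positions were matched to GENCODE M21 on GRCm38 (49056 genes, 91.4% with the same start and end).

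In R 4.3.3, edgeR 4.0.16 tested all genes (quasi-likelihood, robust, TMM, filterByExpr, genotype as the only factor). A call needs a Benjamini-Hochberg adjusted p under 0.05. The biological coefficient of variation was 63.7%. Log2 fold changes are KO minus WT. CPM use TMM-scaled library sizes, while receptor gene CPM and the Malat1 share use total counts. Nearest genes used log2 CPM with a prior count of 2. Groups came from the genotype label, and replicates were numbered in order of deposition and pair nothing. No replicate pair agreed within sampling noise (lowest chi-square per gene 13.74). Scripts were tested on simulated data.

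The members and the gene lists were chosen with earlier results of these data known. All 10 members are named. Of each other list the text names edgeR calls or, as none passed, the 2 members with the highest CPM and the lowest p in each direction, and the 3 nearest genes per member with a mean of at least 5 CPM. One of these nearest genes is not reported here. Alternatives were DESeq2 1.42.0, limma 3.58.1 (voom, with and without quality weights), other scalings and filters, covariates, subsets by name ending and each library left out. Leaving out 3 libraries together and subtracting the silent gene level were added after seeing the data.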

Additional observations from a re-analysis of the deposited data

Results flagged for a closer look

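In the 5 KO libraries, the highest value of 2 of the 10 bulge genes stood far from the others, and both were in KO replicate 2. For Cd34 it was 10.94 CPM against 0.56 to 2.02 in the other KO libraries, a gap of 0.86 of the whole range, where the 95% critical value for 5 samples is 0.71. For Tcf7l1 it was 11.81 CPM against 1.18 to 2.57, a gap of 0.87 of the range. Chance gives such a gap in about 5% of groups if the values are normally distributed, which was not tested for these CPM. The 10 groups examined share the same 5 libraries, so the 2 flags are not independent. The level of silent genes corresponds to 78.3% of the Cd34 counts and 39.1% of the Tcf7l1 counts in KO replicate 2.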

How the results depend on the processing

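Of 220 values of the 10 genes under 22 alternatives each, 208 kept their sign and 12 did not. Krt15, Postn and Hmcn1 kept it in all 22. So did Lgr5 by its unrounded values, but from 0.9 it came to 0 with quality weights and 0.07 without KO replicate 2, which shows no direction. Among libraries ending in br Cd34 was 0.39 and Npnt -0.09, and with the ending as a covariate Cd34 was 0.53. WT against KO ending in bl gave Sox9 -0.07 and Tcf7l1 -0.19, and limma voom Tcf7l1 -0.05. Without WT replicate 2 Sox9 was -0.05, without WT replicate 1 Nfatc1 was 0.08 and without KO replicate 2 Tcf7l1 was -0.35. Without WT replicate 3 and KO replicates 1 and 2, Lhx2 was -0.02, Sox9 -0.1 and Tcf7l1 -0.14. With 1 library left out, Sox9 ran from -0.05 to 0.75, Nfatc1 from -0.59 to 0.08 and Tcf7l1 from -0.35 to 0.95. The cause of these changes was not tested.

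The count of genes called was 1 in edgeR, 137 in DESeq2 (97 higher, 40 lower), 1243 with quality weights (653 higher, 590 lower), 1883 without the 3 libraries (935 higher, 948 lower), 21 for WT against KO ending in bl, 9 without a filter on low counts, 0 in limma voom, with RLE factors, with scaling to Krt5 and Krt14 and among libraries ending in br, and 0 to 1 with 1 library left out. Bulge genes called were 0 in edgeR and 2 in DESeq2 (Postn and Hmcn1 higher), 2 with quality weights (the same genes) and 2 without the 3 libraries (Hmcn1 higher, Krt15 lower), and 0 to 0 with 1 library left out. In the same order, calls were 1, 5 and 6 among the other bulge and hair germ genes, 0, 0 and 1 among genes acting with the members (Lmo4, -0.69), 0, 3 and 4 among cell cycle brake genes, and 1, 4 and 0 among cycling genes. Scaling to Krt5 and Krt14 moved the median of all genes from 0.16 to -0.21. Within KO, the endings gave 0 genes in edgeR, 1893 in DESeq2 and 0 to 12160 with 1 KO library left out, where leaving out the library labelled KO replicate 1 or KO replicate 2 leaves 1 library ending in br, assumed to vary like the others. Without the library labelled KO replicate 1, 12160 of 25768 genes were called, 5 bulge genes among them (Cd34, Lhx2, Tcf7l1 and Lgr5 lower and Nfatc1 higher in bl). Without KO replicate 2, 4620 of 19299 genes were called, 3 bulge genes among them (Krt15, Hmcn1 and Npnt, higher in bl). No paired analysis was possible because the labels give no replicate numbers that pair libraries. Depth limits Cd34, Lgr5, Lhx2 and Tcf7l1 most, with counts of 9 to 155.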
